A study of Drosophila melanogaster with 18 samples.

Results

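The comparison described here sets the female fat body of white prepupae against that of early wandering larvae in a Dutch population (NL) of *Drosophila melanogaster*. It spans the whole onset of metamorphosis that was sampled, from larvae that had just left the food to animals that had just formed a puparium. It uses 6 of the 18 RNA sequencing libraries of the study, 3 prepupal and 3 early, chosen by their labelled population and stage. All genes with a mean count of at least 15 over the 18 libraries were analysed, which are 12460 of the 16438 in the table, and 3978 were left out. *Ccp84Ae* and *CG1537*, with a mean count of 15, were just inside this limit, and *Eglp1* and *lncRNA:CR44909*, with 14.9, just outside it. *Ccp84Ae* had 18, 7 and 25 counts in the prepupal and 1, 6 and 18 in the early libraries, and *Eglp1* 16, 10 and 18 counts in the prepupal and 3, 1 and 7 in the early libraries. The flies were wild-derived isofemale strains without a transgene or a treatment. Each Dutch library pooled the fat bodies of 12 strains, 3 per strain and thus 36 in all, so that it reports an average over the population and not the spread among strains. The 3 libraries of a stage pool the same strains, and the p-values measure the spread between such pools. Early larvae belonged to puff stages 1 and 2 and still carried dye from the food in the gut, and late wandering larvae, used here only to place a change in time, belonged to puff stages 7 to 9. A Zambian population (ZI), with 10 strains and 30 fat bodies per library, was sampled at the same stages and serves as an independent set of libraries.

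The larval fat body of the fly combines roles that mammals divide between liver and adipose tissue. It stores fat and glycogen, makes trehalose for the blood, secretes storage proteins, lipoproteins and immune peptides, and senses nutrients for the whole animal. At the end of larval life a pulse of the steroid 20-hydroxyecdysone, acting through the receptor pair EcR and Usp, turns on a small set of early regulators, which in turn switch larger sets of late genes on and off. The fat body is not destroyed at once, as other larval tissues are. It takes storage proteins back up from the blood, fills with autophagic and protein granules, and falls apart into single cells that feed the animal until adulthood.

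The libraries held 14998610 to 30328600 counts in prepupae and 30029493 to 33687433 in early larvae, and prepupal replicate 2 was the shallow one. The 10 genes with the most counts took 43.8% to 44.6% of a prepupal library and 54.7% to 55.7% of an early one. The level of a gene is given in CPM, its counts per 1000000 of a library size scaled by TMM, which sets aside the most extreme genes. The TMM factors were 1.06 to 1.28 in prepupal and 0.742 to 0.857 in early libraries, so that a CPM is lower than the plain share of counts in prepupae and higher in early larvae. A gene was called higher or lower in prepupae when its adjusted p in the quasi-likelihood F-test of edgeR, with Benjamini-Hochberg adjustment over all 12460 genes, was under 0.05, and positive log2 fold changes stand for higher levels in prepupae. Rises and falls given as a bare number below are on this log2 scale. In bulk tissue, fewer cells of a type and less RNA per cell cannot be told apart.

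Of the 12460 genes, 5670 (45.5%) were called, 2419 of them higher (19.4%) and 3251 lower (26.1%) in prepupae. Among called genes with separate stages and a mean of at least 5 CPM over the 6 libraries, *CG34206* (7.47), *CG9812* (7.33) and *santa-maria* (7.11) had the highest log2 fold changes and *Nplp2* (-5.86), *Lcp65Ab2* (-5.75) and *Lcp3* (-5.57) the lowest. A log2 fold change above 1 was found for 1063 of the genes called higher, and one below -1 for 1681 of those called lower. Beyond 3 on the same scale the numbers were 127 and 142, and beyond 5 they were 26 and 10. All 3 prepupal libraries lay above all 3 early ones for 2977 genes (23.9%) and below them for 3525 (28.3%), together 6502 (52.2%). Many genes named below were picked by call or size of change, so separate stages only describe them and add no support. Over all genes the median of the log2 fold change was 0.09. The balance of the directions depended on the scaling. Upper-quartile scaling moved the median of all genes by 0.20 and gave 3419 higher and 2815 lower genes, and no scaling between libraries moved it by 0.55 and gave 5903 and 1846, whereas the scaling of DESeq2 gave 2374 and 3170. All 2419 genes called higher under TMM were also called higher under both of the shifted scalings. Both move values upward, so this outcome was nearly fixed in advance. Of the 3251 genes called lower under TMM, 2815 stayed so with upper-quartile scaling and 1846 without scaling. Fold changes below are those under TMM, and directions that turned under another scaling are given beside the list or gene.

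Genes called in either direction differed in length and level. The median deposited length was 2473 bases for genes called higher and 1660 for genes called lower, against 1894 for all genes. Among the longest quintile of genes 31.9% were called higher and 16.3% lower, and among the shortest quintile 13.0% and 33.5%. In the quintile with the highest mean CPM, 32.3% were called higher and 43.2% lower, against 8.79% and 2.49% in the lowest quintile. Of 827 long noncoding RNA genes, 134 (16.2%) were called higher and 89 (10.8%) lower. On chromosome 4, 25 of 86 genes (29.1%) were called higher and 14 (16.3%) lower.

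**Figure D1:**
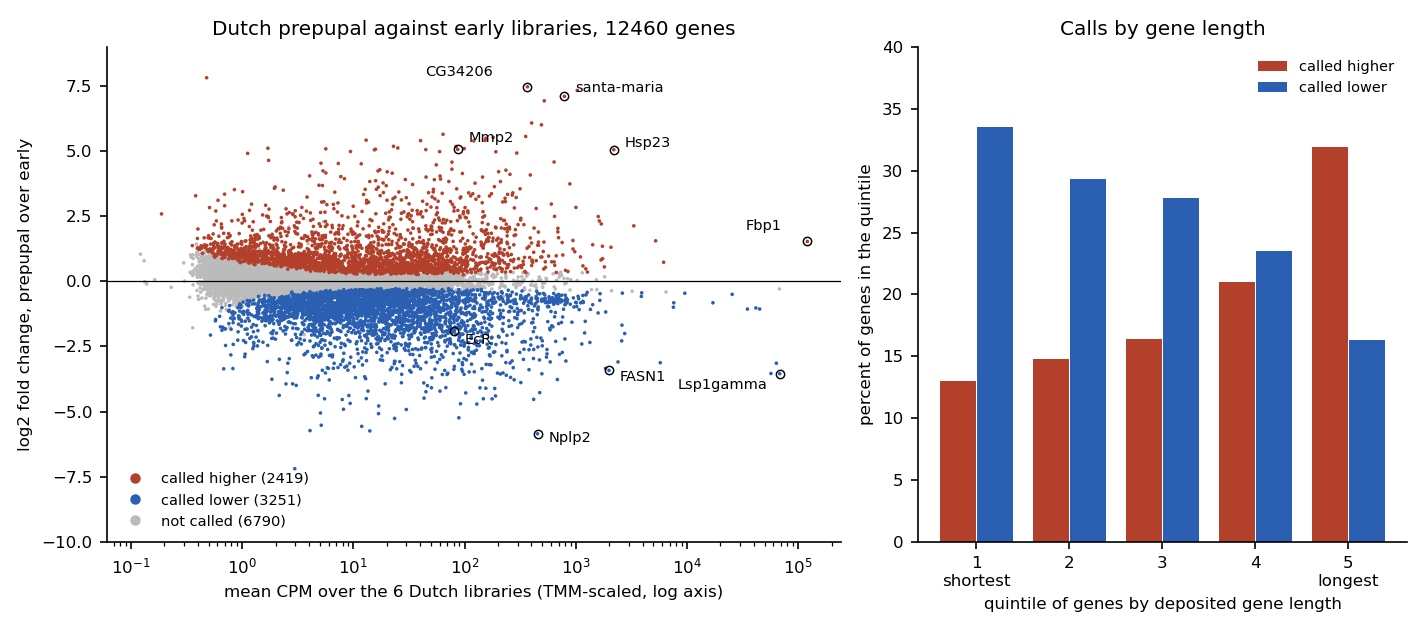
Left, log2 fold change of prepupal over early Dutch libraries against the mean CPM of the 6 libraries (log axis) for 12460 genes, each a point, with 2419 called higher in red, 3251 called lower in blue and 6790 not called in grey. Right, percent of genes called in each direction by quintile of gene length, where calls toward prepupae take 31.9% of the longest quintile and 13.0% of the shortest.

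Lists of marker genes of the fat body and of other tissues that a dissection could carry over were summed per library in CPM, on the scaled library sizes that the calls use. The fat body list (12 genes, storage proteins and lipoproteins among them) held 266035 to 315490.0 CPM in prepupal and 519808 to 584637 CPM in early libraries, and *Fbp1*, described below, is among its genes. The muscle list (15 genes) summed to 195 to 349 CPM in prepupae and 517 to 600.4 in early larvae, with 11 members called lower, among them *Mlc2*, for a muscle myosin light chain, with a log2 fold change of -3.90. The hemocyte list (10 genes) summed to 253 to 303 CPM in prepupae and 361 to 389.9 in early larvae, with 8 members called lower, or 5 without scaling. *Hml*, which encodes hemolectin of the plasmatocytes, had 13.7, 15.2 and 15.1 CPM in prepupal and 93.9, 78.2 and 89.8 CPM in early libraries. A further member, *srp*, for a GATA factor that the fat body also uses, was higher in prepupae, with 202, 213 and 173 CPM there and 123, 122 and 112 CPM in early libraries. Lists of ovary and germ line (121 to 127 CPM in prepupae, 56.4 to 64.7 in early larvae), neuron and glia (418 to 485 and 318 to 357), imaginal disc (108 to 124 and 82.6 to 87.0) and trachea (40.2 to 45.5 and 23.7 to 29.0) held more in prepupae, while cuticle sums overlapped (1259 to 1795 and 1097 to 1313). Single genes led these sums, *bru1* in the ovary list, *Syt1* in the neuron and glia list and *Cpr49Ac* in the cuticle list, and 5 of 10 ovary, 1 of 11 neuron and glia, 4 of 10 disc, 2 of 8 trachea and 8 of 86 cuticle members were called higher. Called lower were 3 neuron and glia and 14 cuticle members, and 0 in the ovary, disc and trachea lists. Over all genes 19.4% were called higher and 26.1% lower. The cuticle calls toward prepupae numbered 4 without prepupal replicate 3, 5 without early replicate 2 and 19 without early replicate 3, and the disc calls 2 without prepupal replicate 3 or early replicate 2. The trachea calls numbered 5 without early replicate 3 and 1 without prepupal replicate 3, early replicate 1 or early replicate 2, and the neuron and glia calls 2 without prepupal replicate 1 or early replicate 3. Without scaling 9 ovary, 4 neuron and glia, 9 disc, 5 trachea and 23 cuticle members were called higher. The chemosensory list (111 of 180 receptor genes tested) overlapped between the stages, at 154 to 208 CPM in prepupae and 132 to 162 CPM in early larvae, with 6 members called higher and 1 lower, and the higher calls numbered 10 without early replicate 1, 12 without early replicate 3 and 36 without scaling, and the lower calls 0 without early replicate 2. Gut and salivary gland sums of the stages overlapped. The Malpighian tubule (58.4 to 71.9 CPM in prepupae, 96.1 to 113 in early larvae), ring gland (58.9 to 66.2 and 76.99 to 113) and oenocyte (369.6 to 446 and 689.6 to 841) sums were lower in prepupae. Their members did not follow as a group, with 1 of 7, 0 of 6 and 3 of 8 called higher and 2, 1 and 1 lower. The median log2 fold changes were -0.22, 0.30 and 0.30. The higher call of the Malpighian tubule list was lost without prepupal replicate 3. Set against column totals instead, the cuticle and chemosensory sums were separate and higher in prepupae, and those of hemocyte, Malpighian tubule and ring gland overlapped. Apart from *Gr10a* in the chemosensory list, no marker was without a count in all 6 libraries, and the part of these tissues in the results below was not tested.

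Regulators of the ecdysone cascade were mostly higher in prepupae. Of 18 genes in the list, 12 were called higher and 3 lower, with a median log2 fold change of 1.26, where 19.4% and 26.1% of all genes were called and their median was 0.09. *Eip93F*, a transcription factor of the late larval and pupal response, had 65.9, 71.3 and 53.1 CPM in prepupal and 4.35, 4.63 and 5.41 CPM in early libraries (log2 fold change 3.72, SE 0.21, edgeR adjusted p = 2.88e-11). *Hr3*, a nuclear receptor that prepares the mid-prepupal switch, had 23.5, 27.4 and 19.8 CPM in prepupae and 2.43, 1.62 and 2.01 CPM in early larvae (log2 fold change 3.53, SE 0.18, edgeR adjusted p = 5.33e-12). The stages were far apart for both genes, with the lowest prepupal library well above the highest early one. *Eip78C*, another nuclear receptor, stood at 98.9, 107 and 84.2 CPM in prepupae and 9.05, 9.34 and 6.72 CPM in early larvae (log2 fold change 3.53, SE 0.26, edgeR adjusted p = 8.29e-10), and *Hr4*, a nuclear receptor that represses early genes, at 129.7, 159 and 112 CPM in prepupae and 15.8, 15.1 and 16.8 CPM in early larvae (log2 fold change 3.07). *Eip75B*, the heme-binding receptor of the early response, had 296, 347 and 284 CPM in prepupal and 82.7, 78.9 and 61.99 CPM in early libraries (log2 fold change 2.05). Again no early library reached a prepupal one. The membrane transporter gene *E23*, whose product lowers the ecdysone response, rose by 3.15. Smaller rises were those of *tai*, which encodes a coactivator of the receptor (1.46), *Kr-h1*, a zinc finger gene that also answers to juvenile hormone (1.34), *Blimp-1*, a repressor that times *ftz-f1* (1.31), *br*, the broad locus that specifies the pupal stage (1.22), *Hr39* (0.96) and *crol* (0.41).

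The receptor itself went the other way. *EcR* had 32.01, 39.5 and 29.7 CPM in prepupal and 133, 125 and 125 CPM in early libraries, 3.800 times as high in early larvae (log2 fold change -1.93, SE 0.18, edgeR adjusted p = 1.81e-08). *ftz-f1*, the competence factor whose main peak comes later in the prepupa, was low at both stages, with 5.36, 5.52 and 4.91 CPM in prepupae and 9.13, 10.6 and 12.2 CPM in early larvae (log2 fold change -1.02, SE 0.14, edgeR adjusted p = 3.35e-06). The libraries of the stages did not overlap for either gene. *usp*, for the partner of EcR, did not pass (log2 fold change 0.24, SE 0.12, edgeR adjusted p = 0.094). It passed when 1 early library was left out, with 0.40 without early replicate 1, 0.40 without early replicate 2 and 0.27 without early replicate 3. *usp* was also called higher with upper-quartile scaling (0.44), without scaling (0.80) and with a mean count of at least 50 (0.32). *Hr78* was called lower at -0.46, but it did not pass without early replicate 1 (-0.28) and turned to 0.09 without scaling. The early gene *Eip74EF*, an ETS factor, had 109.9, 130.1 and 100.2 CPM in prepupae and 114, 119 and 108 CPM in early larvae. These ranges overlap, and the log2 fold change of -0.01 (SE 0.13) was above 0 with upper-quartile or no scaling. Without scaling *Eip74EF* was called higher (0.53, edgeR adjusted p = 0.000282).

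Of 4 genes that handle the hormone, 2 were called lower and the others did not pass, with a median log2 fold change of -0.37 that was 0.18 without scaling. *shd*, the cytochrome P450 that turns ecdysone into its active form, had 20.3, 27.6 and 19.6 CPM in prepupal and 176, 178 and 172 CPM in early libraries (log2 fold change -2.97, SE 0.22, edgeR adjusted p = 9.87e-10). *Oatp74D*, which encodes the importer of ecdysone, had 83.8, 97.4 and 82.9 CPM in prepupae and 137, 143 and 134 CPM in early larvae (log2 fold change -0.65, SE 0.16, edgeR adjusted p = 0.00194), and its call was lost without scaling (-0.11). For these genes every prepupal library lay below every early one. The hydroxylase gene *Cyp18a1* and the oxidase gene *Eo*, both of hormone breakdown, stayed under 3 CPM in all 6 libraries and did not pass.

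Among 12 genes known as targets of ecdysone, 8 were called higher and 3 lower, with a median log2 fold change of 1.39. *Mmp2*, described with the matrix proteases below, is a member of both lists and had the highest log2 fold change here. *Fbp1*, the receptor through which the fat body takes storage proteins back up, had 180997, 190691 and 167384 CPM in prepupal and 74324, 63575 and 48684 CPM in early libraries (log2 fold change 1.53, SE 0.20, edgeR adjusted p = 1.37e-06). By itself it held 20.7% ± 0.647 of all counts in prepupae and 4.89% ± 0.814 in early larvae (SD, n = 3 each). Per length its level was 85544 ± 6619 TPM in prepupae and 20467 ± 3540.0 TPM in early larvae. *ImpE2*, first found as an ecdysone-inducible gene of imaginal discs, had 7.18, 12.7 and 7.49 CPM in prepupae and 0.982, 0.359 and 0.728 CPM in early larvae (log2 fold change 3.69, SE 0.33, edgeR adjusted p = 1.07e-08). Its relatives in name were called higher too, *ImpE3* by 1.59 and *ImpE1* by 1.01, as were the kinase gene *Eip63E* (1.46), the calcium-binding protein gene *Eip63F-1* (1.31) and *MsrA*, for a methionine sulfoxide reductase (1.61). Called lower were *Cth*, for cystathionine gamma-lyase (-1.29), *ImpL2*, for a secreted binder of insulin-like peptides (-1.25), and *Fbp2* (-0.50). The call of *Fbp2* was lost without early replicate 1 (-0.42), early replicate 2 (-0.32) or prepupal replicate 3 (-0.44), and without scaling its value was 0.04. A further member, *rpr*, fell under the count limit.

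Of 9 genes of juvenile hormone reception and breakdown, 4 were called lower and 1, *Kr-h1*, higher, where 26.1% and 19.4% of all genes were. *JhI-26*, a juvenile hormone-inducible gene, had 4.05, 5.52 and 4.65 CPM in prepupal and 40.5, 46.7 and 38.7 CPM in early libraries (log2 fold change -3.16, SE 0.26, edgeR adjusted p = 2.78e-09). The 3 neighbouring genes of juvenile hormone epoxide hydrolase, which breaks the hormone down, were all lower, with log2 fold changes of -2.44 for *Jheh3*, -1.78 for *Jheh1* and -0.72 for *Jheh2*, and the last did not pass without scaling (-0.17). No library of one stage lay within the range of the other for these 4 genes. The genes of the hormone's receptors, *Met* and *gce*, did not pass, and the median of the list, -0.30 under TMM, was 0.21 without scaling.

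**Figure D2:**
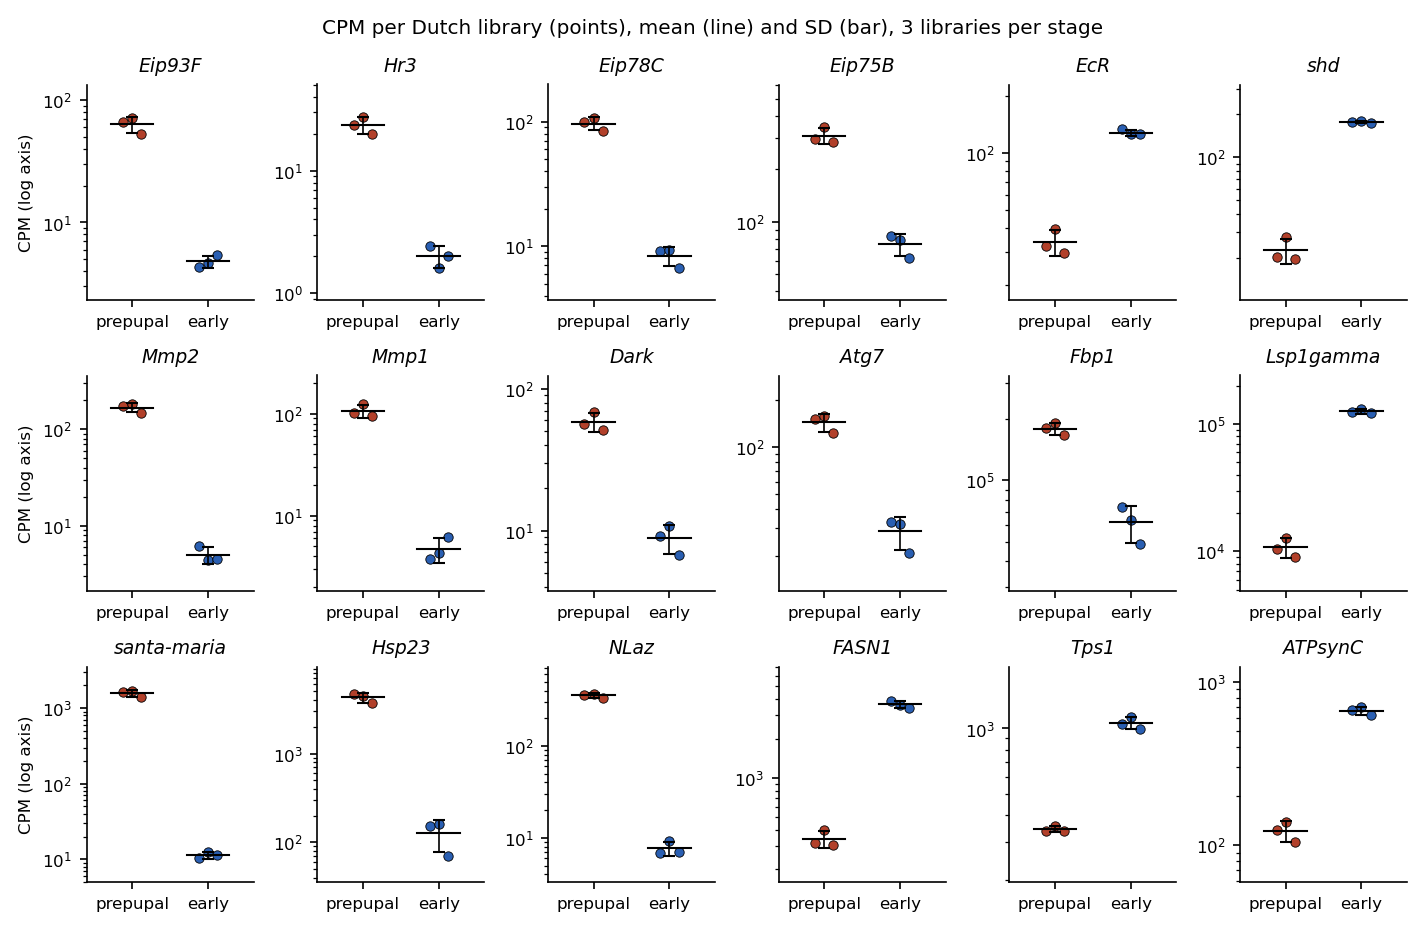
CPM (log axes) of 18 named genes in each Dutch library, with prepupal libraries on the left of each panel in red and early ones on the right in blue; lines are means and bars are SD over 3 libraries. The panels show called genes, and the points of the stages do not overlap in any of them, as in 52.2% of all genes. The mean of *santa-maria* is 1569.6 CPM in prepupae and 11.4 CPM in early larvae.

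Storage protein genes took a smaller part of the counts in prepupae. The list of 16 storage proteins and fat body products took 35.1% ± 0.546 of the counts in prepupae and 45.8% ± 0.520 in early larvae (SD, n = 3 each; exact permutation test, two-sided, p = 0.1, the smallest that 3 against 3 libraries allow), with 13 members called lower and 3 higher and a median log2 fold change of -1.10. Among them *Fbp1* alone made up 20.7% of the counts in prepupae and 4.89% in early larvae. The larval serum protein genes *Lsp1alpha*, *Lsp1beta*, *Lsp1gamma* and *Lsp2*, whose products are amino acid stores secreted into the blood, together held 7.10% ± 0.371 of the counts in prepupae and 32.1% ± 1.10 in early larvae. *Lsp1gamma* had 10495, 12732 and 9009 CPM in prepupae and 124419, 131323 and 121544 CPM in early larvae (log2 fold change -3.55, SE 0.31, edgeR adjusted p = 7.68e-09). *Lsp1alpha* fell to 8426, 10862 and 7763 CPM in prepupae, against 102780.0, 107428 and 104461 CPM in early larvae (log2 fold change -3.54, SE 0.27, edgeR adjusted p = 1.36e-09), and *Lsp1beta* had a log2 fold change of -3.15. The Lsp1 genes are close copies, and how reads were divided among them is uncertain. *Lsp2* changed less, with 29219, 31509.6 and 26742 CPM in prepupal and 60263, 65876 and 56702 CPM in early libraries (log2 fold change -1.06, SE 0.18, edgeR adjusted p = 3.68e-05). In TPM, which allows genes to be compared, *Fbp1* stood above *Lsp2* in prepupae (85544 ± 6619 and 19393 ± 1311), while in early larvae *Lsp1gamma* stood above both (57651 ± 2669 TPM, against 20467 ± 3540.0 for *Fbp1* and 28154 ± 455 for *Lsp2*).

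Among these products *Nplp2*, named as a precursor of neuropeptide-like proteins, fell the most in log2 units, with 14.5, 22.04 and 10.2 CPM in prepupal and 893, 891 and 889 CPM in early libraries (log2 fold change -5.86, SE 0.49, edgeR adjusted p = 4.79e-09). Odorant-binding protein genes expressed in the fat body fell too, with log2 fold changes of -2.78 for *Obp99a*, -1.74 for *Obp44a* and -0.82 for *Obp99b*. Genes of lipid export were lower. *apolpp*, for the main lipoprotein of the blood, had 29272, 30447 and 22733 CPM in prepupae and 55909, 59740.2 and 51843 CPM in early larvae (log2 fold change -1.02, SE 0.20, edgeR adjusted p = 0.000177), *Apoltp*, for the lipid transfer particle, had a log2 fold change of -1.55, and *Mtp*, for the protein that loads both with lipid, one of -1.13. Iron proteins split. The ferritin genes *Fer1HCH* and *Fer2LCH* rose by 1.39 and 1.08, with 662, 722 and 587 CPM of *Fer1HCH* in prepupae and 246, 280.3 and 226 CPM in early larvae, whereas the transferrin gene *Tsf1* fell by 0.90, a call that was lost without scaling (-0.34).

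The proteases that cut extracellular matrix were among the sharpest rises. *Mmp2*, for a membrane-anchored matrix metalloproteinase, had 175, 183 and 148 CPM in prepupal and 6.15, 4.40 and 4.54 CPM in early libraries, a 33.5-fold difference. *Mmp1*, for the secreted one, had 101, 124 and 95.4 CPM in prepupae and 3.76, 4.31 and 6.24 CPM in early larvae, a 22.2-fold difference (log2 fold change 4.47, SE 0.25, edgeR adjusted p = 2.39e-11). *Timp*, for their inhibitor, had 5.45, 6.09 and 5.42 CPM in prepupae and 2.22, 3.14 and 2.67 CPM in early larvae (log2 fold change 1.07, SE 0.23, edgeR adjusted p = 0.000464). All 3 were called higher without overlap of the stages, with a smaller log2 fold change for the inhibitor than for the enzymes.

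Basement membrane genes moved the opposite way, with 12 of 17 called lower and 3 higher and a median log2 fold change of -0.85. The collagen-modifying enzymes led. *Plod*, for lysyl hydroxylase, had 62.00, 76.9 and 59.3 CPM in prepupal and 378, 468 and 403 CPM in early libraries (log2 fold change -2.66, SE 0.24, edgeR adjusted p = 1.08e-08), and *PH4alphaEFB*, for a prolyl hydroxylase, had a log2 fold change of -1.94. *SPARC*, for a collagen-binding protein, had 171, 179 and 179.9 CPM in prepupae and 507, 524 and 495 CPM in early larvae (log2 fold change -1.53, SE 0.16, edgeR adjusted p = 1.39e-07). The linker nidogen, *Ndg*, fell by 1.64, and the collagen IV chains *vkg* and *Col4a1* had log2 fold changes of -1.08 and -0.58. The perlecan gene *trol* was called lower at -0.45, but not without early replicate 1 (-0.33), early replicate 2 (-0.35) or prepupal replicate 3 (-0.33), and without scaling it was at 0.08 and *Col4a1* at -0.04. Of the 3 members called higher, the integrin subunit gene *mys* among them (0.47 with all libraries), 0 passed in edgeR without prepupal replicate 2, where *mys* was at 0.30. *Tig*, for tiggrin, a matrix ligand of integrins that stands outside the list, had 1051, 1258 and 990.0 CPM in prepupae and 4454, 4425 and 4366 CPM in early larvae, a log2 fold change of -2.01.

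Autophagy genes rose or did not pass. Of 28, 14 were called higher and 0 lower in edgeR, with 0 lower at an unadjusted p under 0.05 and 0 lower in DESeq2, and with a median log2 fold change of 0.41. With 1 library left out, 12 to 17 were called higher and at most 1 lower, while 22 were called higher with upper-quartile scaling, 25 without scaling and 2 against a 2-fold change. *Atg7*, for the enzyme that starts the conjugation of Atg8, had 151, 159 and 123 CPM in prepupal and 32.99, 32.1 and 20.9 CPM in early libraries (log2 fold change 2.33, SE 0.22, edgeR adjusted p = 2.76e-08). *Atg2*, for a lipid transfer protein of the growing membrane, had 209, 227 and 189 CPM in prepupae and 74.2, 82.9 and 62.96 CPM in early larvae (log2 fold change 1.51, SE 0.13, edgeR adjusted p = 5e-09). The stages were clear of each other for both. *Atg18b* rose by 1.27, *Atg8a*, for the membrane tag itself, by 0.84, *Rab7*, for the GTPase of fusion with the lysosome, by 0.84, and *Atg1*, for the kinase that starts the process, by 0.59. Genes of the early lipid kinase complex, *Atg6*, *Vps15* and *Atg14*, did not pass.

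Lysosomal enzymes followed, with 11 of 23 members called higher and 4 lower, a median log2 fold change of 0.33, and 0.948% ± 0.0220 of the counts in prepupae and 0.326% ± 0.0255 in early larvae (SD, n = 3 each). The lower calls numbered 2 without early replicate 2. *LManI*, for an alpha-mannosidase, had 559, 552 and 469 CPM in prepupal and 64.2, 63.4 and 41.9 CPM in early libraries (log2 fold change 3.22, SE 0.20, edgeR adjusted p = 9.86e-11), and its neighbour *LManII* rose by 1.40. *cathD*, for the aspartic protease cathepsin D, had the most counts of the members called, with 2944, 3051 and 2869 CPM in prepupae and 1281, 1318 and 976 CPM in early larvae (log2 fold change 1.31, SE 0.14, edgeR adjusted p = 1.28e-07). The cysteine protease genes *CtsL1* and *CtsB* rose by 1.41 and 1.13. In none of these did the stages overlap. *spin*, for a lysosomal efflux carrier, fell by 1.01. The subunits of the vacuolar proton pump, which acidifies the lysosome, mostly did not pass, as 9 of 28 were called lower and 1 higher under TMM, with a median of -0.14, but without early replicate 1 the lower calls numbered 4 and without early replicate 2 they numbered 2, and without scaling the median was 0.40 with 14 higher and 1 lower. The higher calls under TMM numbered 3 without early replicate 3. With all libraries 35.7% of the pump genes were called under TMM, against 45.5% of all genes.

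Of 13 cell death genes, 6 were called higher and 2 lower, where 19.4% and 26.1% of all genes were. The median log2 fold change of the list was 0.47. *Dark*, for the adaptor that activates the initiator caspase, had 56.2, 69.1 and 51.1 CPM in prepupal and 9.22, 10.7 and 6.69 CPM in early libraries (log2 fold change 2.73, SE 0.23, edgeR adjusted p = 4.16e-09). *Dronc*, for that caspase, had 79.5, 91.8 and 72.98 CPM in prepupae and 19.2, 25.02 and 18.5 CPM in early larvae (log2 fold change 1.96, SE 0.17, edgeR adjusted p = 5.32e-09). Adaptor and caspase thus stood above the early range in every prepupal library. The inhibitor gene *Diap1* rose as well, by 0.94, and the caspase gene *Strica* by 0.58, while *Decay*, for an effector caspase, had 11.9, 15.6 and 12.2 CPM in prepupae and 56.8, 56.1 and 48.9 CPM in early larvae (log2 fold change -2.04). The killer genes *rpr*, *grim* and *skl* were under the count limit, with 28, 15 and 22 counts over the 3 prepupal libraries and 16, 13 and 36 over the 3 early ones. Of 32 proteasome genes 19 were called higher and 0 lower in edgeR, and 0 were lower in DESeq2 or at an unadjusted p under 0.05. Upper-quartile scaling gave 29 higher, no scaling 32 and the test against a 2-fold change 0. Their median was 0.41, with 1.07 for *Rpn6* and 0.75 for *Rpt5*.

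**Figure D3:**
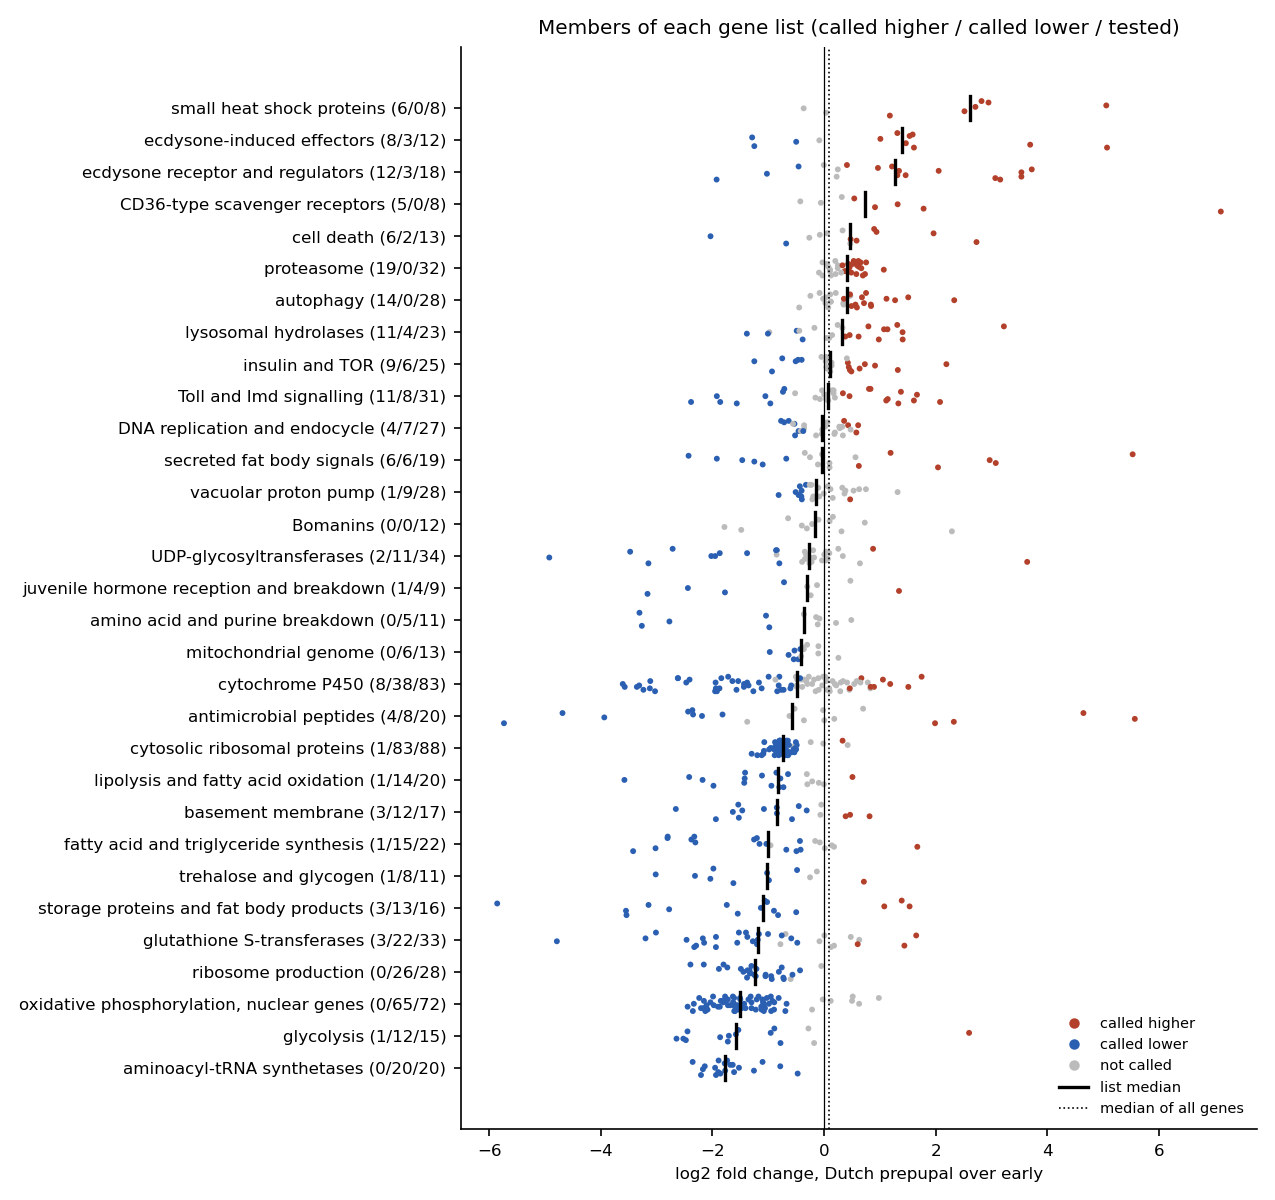
Log2 fold change of prepupal over early Dutch libraries for each member of the gene lists with at least 8 tested genes, red where called higher, blue where called lower and grey where not called, with the list median as a bar; the numbers after each name are members called higher, called lower and tested. Medians run from 2.61 in small heat shock proteins to -1.78 in aminoacyl-tRNA synthetases, against 0.09 for all genes (dotted line), and without scaling the medians of the proton pump, juvenile hormone, DNA replication, mitochondrial genome, P450, UDP-glycosyltransferase, Bomanin, secreted signal and amino acid breakdown lists are above 0.

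Genes of fat synthesis were lower in prepupae. Of 22 genes of fatty acid and triglyceride synthesis, 15 were called lower and 1 higher (2 without early replicate 2), with a median log2 fold change of -0.9971, and the list took 0.241% ± 0.0290 of the counts in prepupae and 0.747% ± 0.0212 in early larvae (SD, n = 3 each). *FASN1*, the fatty acid synthase gene of the fat body, had 318, 398 and 305 CPM in prepupal and 3894, 3628 and 3410.3 CPM in early libraries (log2 fold change -3.42, SE 0.25, edgeR adjusted p = 9.16e-10). *ATPCL*, for the enzyme that supplies cytosolic acetyl-CoA, had 88.8, 127 and 95.6 CPM in prepupae and 983, 803 and 735 CPM in early larvae (log2 fold change -3.02, SE 0.18, edgeR adjusted p = 5.58e-11). Both differences were far wider than the spread of the replicates. *ACC*, for the carboxylase of the committed step, fell by 2.33 and *Desat1*, for the desaturase, fell by 2.81. Downstream, *Agpat2* (-2.80) and *mdy* (-2.38), whose enzymes add the later acyl chains to triglyceride, fell together with *SREBP*, the transcription factor of lipid synthesis (-1.20). *Men*, for malic enzyme, was lower by 1.16. The exception was *FASN3*, another synthase gene with far fewer counts, at 15.7, 16.1 and 16.6 CPM in prepupae and 2.39, 6.60 and 6.17 CPM in early larvae (log2 fold change 1.67, SE 0.40, edgeR adjusted p = 0.00155). *FASN3* is also a member of the oenocyte marker list above.

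Genes of fat breakdown were lower too. In the list of lipolysis and fatty acid oxidation 14 of 20 genes were called lower and 1 higher, with a median of -0.83. *Acox57D-d*, for a peroxisomal acyl-CoA oxidase, had 10.99, 10.9 and 10.4 CPM in prepupal and 123, 133 and 129 CPM in early libraries (log2 fold change -3.58, SE 0.19, edgeR adjusted p = 1.23e-11). The mitochondrial enzymes *Echs1* and *Mcad* had log2 fold changes of -2.42 and -2.18, and *fabp*, for a carrier of fatty acids, one of -1.98. *Mcad* had 163, 195 and 170.1 CPM in prepupae and 819, 936 and 631 CPM in early larvae, which leaves the stages well separated. The lipid droplet genes *Lsd-2*, for a coat protein, and *bmm*, for the brummer lipase, had log2 fold changes of -0.86 and -0.80, and *bmm* did not pass without scaling (-0.26). *Hsl*, for the other main lipase, was called higher at 0.51, a call that was lost without prepupal replicate 2 (0.35).

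Genes of sugar metabolism moved in the same direction. Of 15 genes of glycolysis, 12 were called lower and 1 higher, with a median of -1.58. *Pgi*, the first enzyme after glucose is phosphorylated, had 133, 146 and 127 CPM in prepupal and 744, 845 and 744 CPM in early libraries (log2 fold change -2.52, SE 0.21, edgeR adjusted p = 4.7e-09). *Gpdh1*, which links glycolysis to the glycerol of fat, fell by 2.64, *Tpi* and *Eno* had log2 fold changes of -2.48 and -1.86, and *Pfk*, the regulated step, fell by 0.89. The single rise was that of *Hex-C*, a hexokinase gene, with 56.5, 53.7 and 52.1 CPM in prepupae and 10.5, 7.77 and 8.52 CPM in early larvae (log2 fold change 2.60, SE 0.19, edgeR adjusted p = 7.58e-10). Of 11 genes of trehalose and glycogen metabolism, 8 were lower and 1 higher, with a median of -1.02. *Tps1*, which makes trehalose, the blood sugar of insects, had 337, 356 and 338 CPM in prepupae and 1053, 1133 and 993 CPM in early larvae (log2 fold change -1.63, SE 0.20, edgeR adjusted p = 9.75e-07). Genes of glycogen synthesis and of its breakdown fell, with log2 fold changes of -3.02 for the branching enzyme *AGBE*, -2.04 for the synthase *Glys*, -1.98 for the phosphorylase *Glyp* and -2.31 for *Pgm1*. *Treh*, for the trehalase, fell by 1.02, and *Pgm2a* rose by 0.71.

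Genes of mitochondrial respiration moved as a block. Of 72 nuclear genes of oxidative phosphorylation, 65 were called lower and 0 higher in edgeR (1 higher at an unadjusted p under 0.05, 0 in DESeq2), with a median log2 fold change of -1.50, and 63 were called lower without scaling. *ATPsynC*, for the ring subunit of the ATP synthase, had 124, 139 and 104 CPM in prepupal and 676, 699 and 624 CPM in early libraries (log2 fold change -2.45, SE 0.23, edgeR adjusted p = 1.84e-08). *ATPsynE* fell by 2.35 and *ATPsynbeta*, for the catalytic subunit, fell by 2.15. The 13 protein genes of the mitochondrial genome moved less, with 6 called lower, or 3 without early replicate 2, and a median of -0.41 under TMM that was 0.12 without scaling. As a share of counts they held 1.56% ± 0.0973 in prepupae and 1.46% ± 0.0501 in early larvae (SD, n = 3 each; exact permutation test, two-sided, p = 0.3). On TMM-scaled library sizes the order was the opposite, at 1.37% ± 0.205 in prepupae and 1.85% ± 0.166 in early larvae (SD, n = 3 each; exact permutation test, two-sided, p = 0.1).

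The machinery of protein synthesis was lower at each level. All 20 cytosolic aminoacyl-tRNA synthetase genes tested were called lower, with a median of -1.78, and 19 were called lower without scaling. *HisRS* had 17.2, 20.3 and 18.9 CPM in prepupal and 101, 92.2 and 94.5 CPM in early libraries (log2 fold change -2.36, SE 0.13, edgeR adjusted p = 2.48e-11), and *ThrRS* fell by 2.21. Of 28 genes of ribosome production 26 were called lower, or 17 without scaling, with a median of -1.24, *Nop56*, for a core protein of small nucleolar particles, with -2.16 and *Myc*, the growth regulator that drives them, with -0.94, which did not pass without scaling (-0.40). The ribosomal proteins themselves changed less, since 83 of 88 were called lower and 1 higher (0 without prepupal replicate 3, 2 without early replicate 1) with a median of -0.74, and without scaling 56 were lower and 2 higher with a median of -0.20. Their share of counts was 4.46% ± 0.0401 in prepupae and 5.17% ± 0.153 in early larvae (SD, n = 3 each). *RpL3* had 1232, 1363 and 1118 CPM in prepupae and 2095, 2229 and 1844 CPM in early larvae (log2 fold change -0.73, SE 0.15, edgeR adjusted p = 0.000441), and *RpS2* fell by 1.20. The ranges of the stages were separate for these named genes.

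Against these falls stood a set of strong rises outside the ecdysone lists. Of 8 small heat shock protein genes, which encode chaperones that ecdysone also induces in development, 6 were called higher, with a median of 2.61. *Hsp23* had 4708, 4459 and 3659 CPM in prepupal and 154, 163 and 69.99 CPM in early libraries (log2 fold change 5.05, SE 0.38, edgeR adjusted p = 1.16e-09). The list rose to 0.586% ± 0.0297 of the counts in prepupae, against 0.0218% ± 0.00520 in early larvae (SD, n = 3 each). *Hsp27*, *Hsp67Bc* and *Hsp67Ba* followed with 2.82, 2.94 and 2.71. Among 8 scavenger receptor genes of the CD36 type, 5 were called higher. *santa-maria*, known for carotenoid uptake in the visual system, had 1642, 1670.0 and 1396 CPM in prepupae and 10.2, 12.6 and 11.3 CPM in early larvae, a 138-fold difference (log2 fold change 7.11, SE 0.32, edgeR adjusted p = 9.46e-13). *emp* rose by 1.78 and *crq*, for the croquemort receptor of dying cells, by 0.91.

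Signals secreted by the fat body changed one by one rather than as a group, with 6 of 19 called higher and 6 lower and a median of -0.04 that was above 0 with upper-quartile or no scaling. *NLaz*, for a lipocalin, had 361, 368 and 333 CPM in prepupal and 6.91, 9.16 and 6.999 CPM in early libraries (log2 fold change 5.53, SE 0.20, edgeR adjusted p = 3.72e-14). *Ilp6*, the insulin-like peptide of the fat body, had 398, 451 and 326 CPM in prepupae and 108, 100.3 and 77.4 CPM in early larvae (log2 fold change 2.04, SE 0.15, edgeR adjusted p = 6.88e-10). *Gbp1*, for a growth-blocking peptide that answers to amino acids, rose by 3.07, and *CCHa2*, for a nutrient-dependent peptide, by 0.62. *sun*, *spz* and *egr*, for an insulinotropic peptide, the ligand of Toll and the fly TNF, had log2 fold changes of -2.43, -1.92 and -1.47. In the insulin and TOR list 9 of 25 genes were called higher and 6 lower, where 19.4% and 26.1% of all genes were. Its median was 0.11, but upper-quartile scaling gave 13 and 3 with a median of 0.31, and no scaling 18 and 1 with a median of 0.66. *Sesn*, for a brake on TOR, had 264, 288 and 248 CPM in prepupae and 55.2, 66.3 and 54.02 CPM in early larvae (log2 fold change 2.19, SE 0.15, edgeR adjusted p = 2.07e-10), and *Thor*, for the translation brake 4E-BP, rose by 1.32. *foxo* and *Akt* were higher by 0.73 and 0.64. Each prepupal value of *Sesn*, *Ilp6* and *NLaz* lay above every early value.

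Antimicrobial peptide genes were split, with 4 of 20 called higher and 8 lower, where 19.4% and 26.1% of all genes were called. The lower calls numbered 6 to 8 with 1 library left out, 6 without scaling and down to 4 under the remaining settings. All prepupal libraries lay below all early ones for 4 members, and 2 members were called lower in Zambian libraries. *Drsl5*, of the drosomycin family, had 803, 751 and 532 CPM in prepupal and 9.77, 14.1 and 20.1 CPM in early libraries (log2 fold change 5.56, SE 0.32, edgeR adjusted p = 3.43e-11), and *Drs*, for drosomycin, 421, 516 and 436 CPM in prepupae and 105, 156 and 85.1 CPM in early larvae (log2 fold change 1.99, SE 0.22, edgeR adjusted p = 1.99e-07). *AttC*, for an attacin, had 34.4, 40.2 and 49.6 CPM in prepupae and 145, 234 and 187 CPM in early larvae (log2 fold change -2.19, SE 0.32, edgeR adjusted p = 7.6e-06). The stages were separate for these 3 genes. The cecropin genes *CecB* and *CecC*, close copies that may share reads, were called lower at -5.73 and -4.69, but their early levels were uneven, with 0.854, 15.6 and 7.52 CPM of *CecB*, and without early replicate 2 the values were -4.69 and -4.02. *AttB*, at -2.36, overlapped between the stages and was at -1.59 without that library. Of 12 Bomanin genes, which encode short peptides of the Toll response, 0 were called in edgeR, 1 in each direction had an unadjusted p under 0.05, 1 was called higher in DESeq2, and their log2 fold changes ran from -1.79 to 2.29. Toll and Imd signalling genes numbered 11 higher and 8 lower of 31, with a median of 0.07, and without scaling 21 and 6 with a median of 0.62. *SPE*, for the protease that activates the Toll ligand, fell by 2.38, and *pirk*, for an inhibitor of the Imd branch, rose by 2.08.

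Detoxification families had more lower than higher calls, as did all genes (26.1% and 19.4%), and glutathione S-transferase genes were mostly lower. Of 83 cytochrome P450 genes, 38 were called lower and 8 higher, with a median of -0.48 under TMM and 0.08 without scaling, where 32 were lower and 18 higher. *Cyp4s3* had 33.5, 40.6 and 34.2 CPM in prepupal and 475, 442 and 399.6 CPM in early libraries (log2 fold change -3.61, SE 0.21, edgeR adjusted p = 2.78e-11), *Cyp9b1* had a log2 fold change of -3.57 and *Cyp28a5* one of -3.35. *Cyp6g1*, known for insecticide resistance with the most counts of the family, had 5062, 5345 and 4740.4 CPM in prepupae and 11273, 10844 and 8058 CPM in early larvae (log2 fold change -0.99, SE 0.16, edgeR adjusted p = 3.16e-05). Prepupal libraries were below early ones throughout for these genes. Of 33 glutathione S-transferase genes 22 were called lower and 3 higher, with a median of -1.19. *GstD6* fell by 4.79 and *GstD7* fell by 3.20, both members of a cluster of near copies whose reads may be mixed. *GstD1* fell by 0.76, which did not pass without scaling (-0.21). In 34 UDP-glycosyltransferase genes there were 11 lower and 2 higher calls, with a median of -0.26 that was 0.28 without scaling, and the higher calls numbered 1 without prepupal replicate 1, prepupal replicate 3 or early replicate 1. Calls took 38.2% of this family, against 45.5% of all genes. *Ugt35A1* fell by 4.92, while *Ugt36D1* had 373, 371 and 287 CPM in prepupae and 26.5, 33.3 and 23.1 CPM in early larvae, a rise of 3.64.

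Some of the steepest changes lay in genes outside the lists. Above 5 CPM on average and with separate stages, *CG34206* led the rises with 791, 766 and 639 CPM in prepupal and 4.01, 3.998 and 4.33 CPM in early libraries (log2 fold change 7.47, SE 0.20, edgeR adjusted p = 5.4e-16). *CG9812* had 2254, 1993 and 1909.5 CPM in prepupae and 12.8, 13.4 and 11.95 CPM in early larvae (log2 fold change 7.33, SE 0.33, edgeR adjusted p = 9.46e-13), and *CG5697*, *CG5618* and *CG1607* rose by 6.93, 6.08 and 6.01. Separate stages were a condition of this ranking, so they are no further support for these genes. *ple*, for tyrosine hydroxylase, which starts the synthesis of dopamine and of cuticle pigments, had 74.1, 88.6 and 73.2 CPM in prepupae and 1.84, 1.89 and 1.84 CPM in early larvae (log2 fold change 5.40, SE 0.30, edgeR adjusted p = 1.81e-11). The kinase gene *Dyrk2* (5.49), the transporter gene *dmGlut* (5.41), *CG5973* (5.65) and *CG11192* (5.42) were also among the 15 largest rises. At the other end, *ssp7* had 4.72, 5.96 and 3.33 CPM in prepupae and 149.7, 175 and 196 CPM in early larvae (log2 fold change -5.24, SE 0.39, edgeR adjusted p = 8.58e-10), and *CG43153*, *CG15293*, *smp-30* and *CG15199* had log2 fold changes of -5.08, -4.71, -4.70 and -4.91. The larval cuticle protein genes *Lcp65Ab2* (-5.75), *Lcp3* (-5.57) and *Lcp4* (-5.27), products of epidermis with close copies, were in the same group. So were the trypsin genes *deltaTry* and *gammaTry*, products of the gut that are near-identical to neighbours, at -5.53 and -5.06. *deltaTry* had 0.264, 0.377 and 0.0861 CPM in prepupal and 1.58, 1.17 and 27.4 CPM in early libraries. Its early level thus rested on early replicate 3, without which the values of the pair were -2.53 and -2.08 and neither passed, and neither passed without prepupal replicate 3 (-5.05 and -4.94).

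Ranked by the difference in mean CPM, the rises behind *Fbp1* included *CG11089* and several enzymes of amino acid and purine metabolism. *CG11089* had 7826, 8129 and 7475 CPM in prepupal and 3148, 2842 and 1985 CPM in early libraries (log2 fold change 1.55, SE 0.18, edgeR adjusted p = 3.62e-07). *Gart*, for several steps of purine synthesis, had 5380.1, 5570.0 and 5305 CPM in prepupae and 1442, 1498 and 769 CPM in early larvae (log2 fold change 2.13, SE 0.23, edgeR adjusted p = 1.75e-07). *Shmt*, for serine hydroxymethyltransferase, and *Gs1*, for glutamine synthetase, rose by 2.32 and 2.21. In each of these the lowest prepupal library exceeded the highest early one. *NimC2*, for a receptor of the Nimrod family, had 2660.0, 2830.0 and 2623 CPM in prepupae and 599.6, 498 and 349 CPM in early larvae (log2 fold change 2.49), *CG5554* rose by 3.74, *CG5966* by 2.84, *Act5C*, for cytoplasmic actin, by 1.35 and *CG2233* by 0.73. Behind the storage proteins, the falls in mean CPM included *fon*, for a clotting protein, with 1200.5, 1275 and 1076 CPM in prepupae and 10216, 10819.5 and 9963 CPM in early larvae (log2 fold change -3.13, SE 0.26, edgeR adjusted p = 3.23e-09). *Adhr*, next to the alcohol dehydrogenase gene, fell by 3.10, *regucalcin* fell by 2.29 and *CG34166* fell by 0.82.

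Most of the noncoding RNA genes named here, which were picked by the size of their change, moved in the direction of the gene across from them. Counting is not stated to have used the strand, so reads of a gene and of its antisense partner cannot be told apart, and 9 of the 11 noncoding genes named here overlap a protein-coding gene on the opposite strand. *asRNA:CR11538* (BDGP6 chromosome 3L, 12129103 to 12131488, minus strand) had 22566, 24458 and 20923 CPM in prepupal and 46685, 51334 and 44181 CPM in early libraries, and it lies over 2096 bases of *Lsp2* (12129393 to 12131869, plus strand), with log2 fold changes of -1.07 and -1.06. *lncRNA:CR45593* (chromosome 3R, 6761513 to 6763478, minus strand) rose by 5.19, and *Ama*, on the plus strand at 6762593 to 6765261, by 4.58. *asRNA:CR44390* rose by 2.50 across from *Dark* (2.73), and *asRNA:CR44996* by 4.02 across from *CG7227* (4.98). Among the falls, *asRNA:CR45396* had a log2 fold change of -3.36 across from *Pdi* (-3.34), *asRNA:CR46129* -4.54 across from *alpha-Est2* (-4.51), *asRNA:CR45195* -3.70 across from *Sodh2* (-4.09) and *asRNA:CR44431* -3.03 across from *Mgstl* (-3.18). *lncRNA:let7C*, the primary transcript of let-7 and related microRNAs of the larval to adult transition, had 12.1, 12.3 and 10.7 CPM in prepupae and 1.66, 2.02 and 0.901 CPM in early larvae (log2 fold change 2.96, SE 0.26, edgeR adjusted p = 7.07e-09), and it shares only 169 of its bases with *CG10283*, which rose by 0.93. *lncRNA:CR45018* rose by 3.43 and lies on the same strand as *IP3K2*, which did not pass. *lncRNA:CR44316*, with no overlap in the table, fell by 4.39. The partner genes without a place in the lists were named after their values were seen.

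Late wandering libraries, which lie between the stages compared, place these changes in time. They share libraries with the comparison above through each of its ends, so their values are given side by side and not as a separate result. Between late and early Dutch libraries 5180 genes (41.6%) were called, and between prepupal and late ones 1885 (15.1%). *FASN1* averaged 3644 ± 242 CPM in early, 461 ± 132 in late and 340.3 ± 50.1 in prepupal libraries (SD, n = 3 each), a log2 change of -2.98 up to the late stage and of -0.44 after it. *Atg7* averaged 28.7 ± 6.77 CPM in early, 107 ± 34.9 in late and 144 ± 19.03 in prepupal libraries. Most of the change of these genes was present at the late stage. *Eip93F*, at 4.80 ± 0.546, 14.4 ± 3.41 and 63.4 ± 9.38 CPM in early, late and prepupal libraries, changed by 1.59 up to the late stage and by 2.13 after it. *Mmp2*, at 5.03 ± 0.970, 34.01 ± 5.77 and 169 ± 18.2 CPM, changed by 2.76 and 2.31, and *Dronc*, at 20.9 ± 3.56, 30.4 ± 3.26 and 81.4 ± 9.55 CPM, by 0.54 and 1.42. For *Eip93F* and *Dronc* the step after the late stage was the larger one in log2 units. *shd* had 175 ± 3.30 CPM in early, 119.6 ± 48.5 in late and 22.5 ± 4.45 in prepupal libraries, and *Mcad* 795 ± 154, 873 ± 361 and 176 ± 16.8 CPM, and the late mean of *Mcad* was not below the early one.

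**Figure D4:**
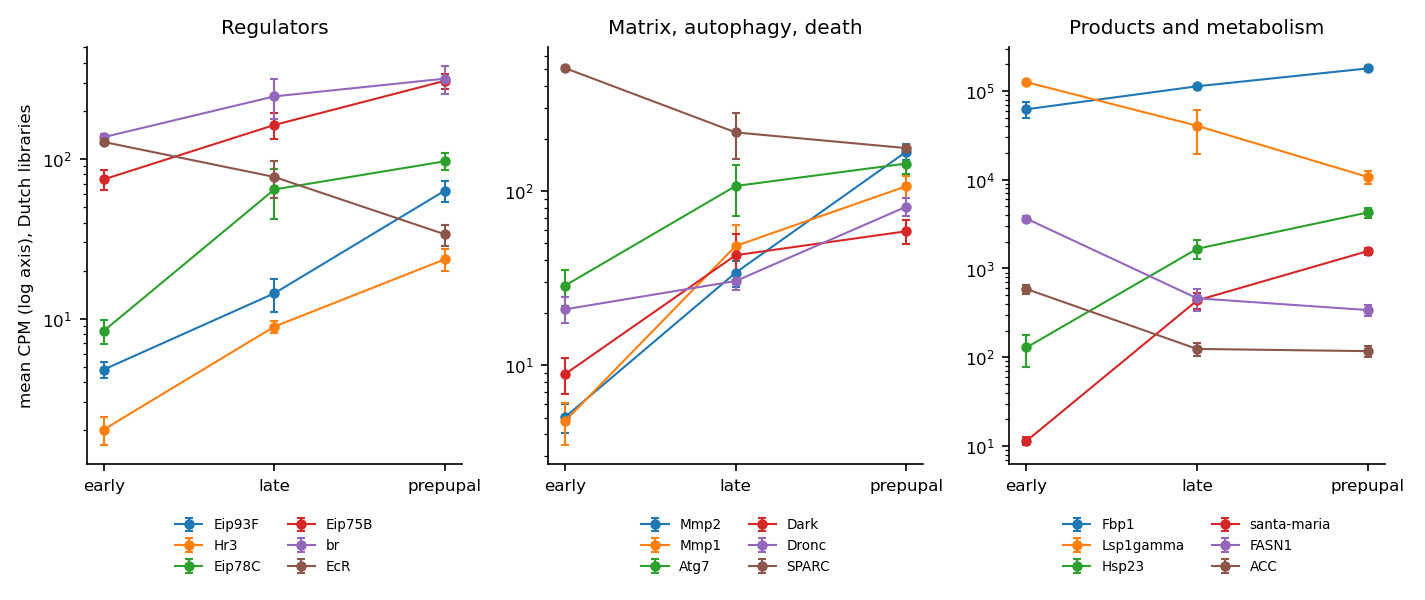
Mean CPM (log axes; bars are SD over 3 libraries) of 18 genes in early, late and prepupal Dutch libraries. *FASN1* falls mostly before the late stage, at 461 CPM there, whereas *Eip93F*, at 14.4 CPM in late and 63.4 CPM in prepupal libraries, rises mostly after it.

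The Zambian libraries gave the same comparison without sharing a library. There 5132 genes (41.2%) were called, 2249 higher and 2883 lower in prepupae. Of the 2419 genes higher in Dutch prepupae 1750 were also higher in Zambian ones, which is 72.3% of the Dutch and 77.8% of the Zambian list. Of the 3251 lower ones 2577 were shared, 79.3% of the Dutch and 89.4% of the Zambian list, while 10 genes higher in Dutch prepupae were lower in Zambian ones and 11 lower in Dutch prepupae were higher in Zambian ones. *Eip93F* rose by 3.72 in Dutch and 3.50 in Zambian prepupae, *Dark* by 2.73 and 2.47, *santa-maria* by 7.11 and 7.66, and *FASN1* had log2 fold changes of -3.42 and -3.10. Their differences between populations did not pass (edgeR adjusted p = 0.836, 0.826, 0.643 and 0.787). A test of the difference in the change itself called 184 genes (1.48%), 85 with the more positive change in Dutch (0.682%) and 99 with the more positive change in Zambian libraries (0.795%). Of the 184 genes, 139 were also called in the Dutch comparison, where 45.5% of all genes were. The tested difference contains that comparison, so this overlap was partly built in. The split between the populations was 133 and 106 with upper-quartile scaling and 184 and 71 without scaling. The count was 103 without Dutch prepupal replicate 1, 110 without Zambian prepupal replicate 2 and 121 without Zambian prepupal replicate 3. *Tsp42Eg*, for a tetraspanin, had the smallest p in that test. It averaged 1.38 ± 0.00200 CPM in Dutch prepupal and 25.7 ± 1.65 CPM in Dutch early libraries, a log2 fold change of -4.22, against -0.61 in Zambian libraries (edgeR adjusted p of the difference = 1.69e-07). *Mmp1* rose by 4.47 in Dutch and 2.73 in Zambian prepupae (edgeR adjusted p of the difference = 0.00579).

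**Figure D5:**
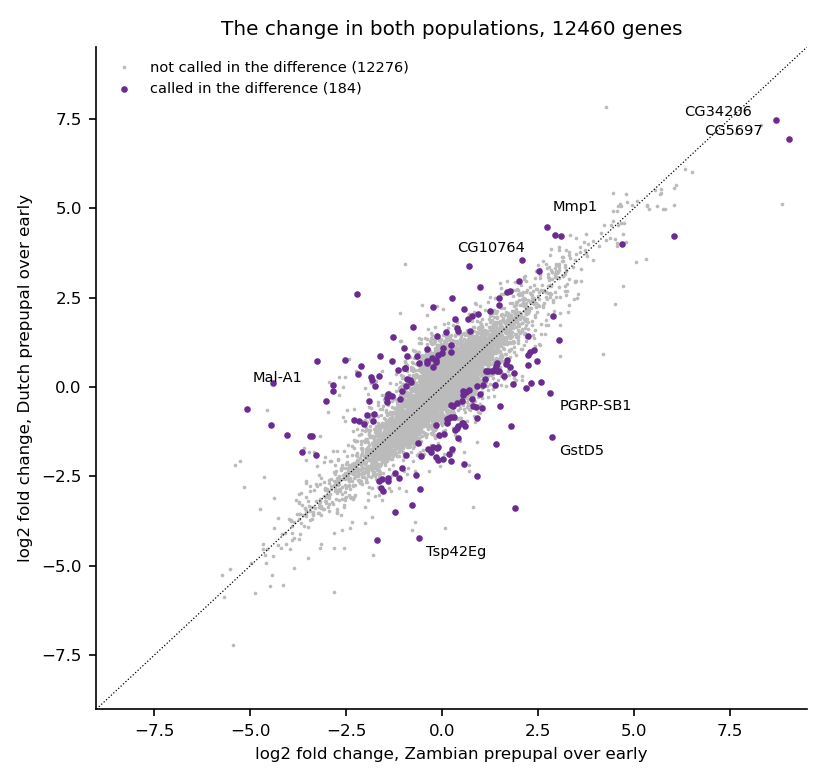
Log2 fold change of prepupal over early libraries in the Dutch (vertical axis) and Zambian (horizontal axis) population for 12460 genes, with the 184 genes called in the test of the difference in purple and the line of equal change dotted. *Tsp42Eg* lies at -4.22 (Dutch) and -0.61 (Zambian), and *Mal-A1* at 0.05 and -2.84.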

How the data were processed

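RNA of dissected female larval fat bodies was depleted of ribosomal RNA and sequenced by the authors as paired reads, which they mapped with NextGenMap to the FlyBase transcriptome, discarding pairs whose mates mapped to different genes. The deposited values are whole-number counts per gene, summed over transcripts, with a gene length for each gene. The counting is not stated to have used the strand. All columns were matched to a library by name. Of the gene numbers, 16343 were named by Ensembl identifier, 76 by RefSeq number and 19 kept their number. Groups were taken from the labelled population and stage.

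Genes with a mean count of at least 15 over the 18 libraries were kept. They were scaled by TMM and fitted with the quasi-likelihood model of edgeR 4.0.16 (R 4.3.3, limma 3.58.1) with 1 coefficient per group of population and stage over all 18 libraries, so that all groups share the estimate of the spread. The contrasts were prepupal over early in the Dutch population, the same in the Zambian population and the difference between them, with Benjamini-Hochberg adjustment over all genes tested and a threshold of 0.05. TPM were computed from the counts and deposited lengths, and shares of counts from column totals, with an exact two-sided permutation test. The fit was run on simulated counts with few changed genes, balanced in direction. Those counts did not model the broad change between the real stages, so the run cannot decide the choice of scaling. DESeq2 1.42.0 was an alternative, and Python 3.11.15 (pandas 2.3.3, numpy 2.4.6, scipy 1.17.1, matplotlib 3.10.9) made tables and figures. Other alternatives were RLE, upper-quartile and no scaling, no filter, a mean count of at least 50, the 6 Dutch libraries only, a replicate block, a test against a 2-fold change and leaving out each library. Motifs in promoters were not searched and sequences are not shown here.

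Named genes come from a rule: members of the core lists, up to 4 called members with the largest change and the member with the most counts from other lists, the 15 largest log2 fold changes in each direction with separate stages and a mean of at least 5 CPM, the 15 largest differences in mean CPM, the 5 largest changes of noncoding genes in each direction and the 10 smallest p-values of the difference between populations. The comparison, the lists and this rule were chosen with earlier results of these data known. Of 579 entries in 49 lists 4 matched no gene. The depth of the Dutch libraries, 14998610 to 33687433 counts, sets the precision of low levels.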

Additional observations from a re-analysis of the deposited data

Results flagged for a closer look

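The genes below were singled out because the change from early larvae to prepupae differed between the populations in the test of the difference itself. Each difference is the Dutch minus the Zambian log2 fold change of prepupal over early libraries, and values are mean CPM ± SD (n = 3 each). *Tsp42Eg* averaged 1.38 ± 0.00200 CPM in Dutch prepupal and 25.7 ± 1.65 CPM in Dutch early libraries, against 0.664 ± 0.109 CPM in Zambian prepupal and 0.992 ± 0.166 CPM in Zambian early libraries, a difference of -3.61 between the log2 changes (SE 0.26, edgeR adjusted p = 1.69e-07). *Mal-A1*, for a maltase, averaged 1.82 ± 0.398 CPM in Dutch prepupal and 1.81 ± 0.134 CPM in Dutch early libraries, against 4.23 ± 1.28 CPM in Zambian prepupal and 30.6 ± 2.20 CPM in Zambian early libraries, a difference of 2.89 between the log2 changes (SE 0.29, edgeR adjusted p = 1.56e-05). *Mal-A1* did not pass in the Dutch comparison, and *Tsp42Eg* was near 1 CPM at both stages in Zambian libraries.

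*Mmp1* averaged 107 ± 15.2 CPM in Dutch prepupal and 4.77 ± 1.30 CPM in Dutch early libraries, against 74.1 ± 14.01 CPM in Zambian prepupal and 11.2 ± 1.94 CPM in Zambian early libraries, a difference of 1.75 between the log2 changes (SE 0.32, edgeR adjusted p = 0.00579). *GstD5*, a member of a cluster of near copies, averaged 4.68 ± 0.605 CPM in Dutch prepupal and 12.4 ± 1.66 CPM in Dutch early libraries, against 19.1 ± 8.40 CPM in Zambian prepupal and 2.65 ± 0.306 CPM in Zambian early libraries, a difference of -4.26 between the log2 changes (SE 0.55, edgeR adjusted p = 0.000275). *CG10764* averaged 114.9 ± 15.4 CPM in Dutch prepupal and 11.1 ± 2.91 CPM in Dutch early libraries, against 152 ± 23.9 CPM in Zambian prepupal and 94.2 ± 12.2 CPM in Zambian early libraries, a difference of 2.69 between the log2 changes (SE 0.30, edgeR adjusted p = 9.42e-05). In *GstD5* the direction was opposite in the populations, although its Dutch fall did not pass without scaling (-0.84, edgeR adjusted p = 0.0782), whereas *Mmp1* and *CG10764* rose in both by different amounts. *PGRP-SB1*, for a secreted peptidoglycan-binding protein, averaged 54.9 ± 8.02 CPM in Dutch prepupal and 61.2 ± 26.8 CPM in Dutch early libraries, against 207 ± 20.1 CPM in Zambian prepupal and 29.6 ± 12.6 CPM in Zambian early libraries, a difference of -2.97 between the log2 changes (SE 0.40, edgeR adjusted p = 0.000351). *Cyp6g1* averaged 5049 ± 302 CPM in Dutch prepupal and 10058 ± 1745 CPM in Dutch early libraries, against 2152 ± 271 CPM in Zambian prepupal and 1515 ± 76.8 CPM in Zambian early libraries, a difference of -1.50 between the log2 changes (SE 0.23, edgeR adjusted p = 0.00127). *Cyp6g1* was lower in Dutch prepupae and higher in Zambian ones than in their early larvae.

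Further differences were -2.09 for *CG5697*, -1.22 for *CG34206*, -1.76 for *CG2003*, -2.19 for *CG17270* and -0.81 for *Strica*, where the Zambian change was the more positive, and 2.10 for *Sk1*, 2.69 for *CBP* and 1.02 for *Treh*, where the Dutch change was. For *CG34206* the prepupal means were 732 CPM in Dutch and 736 CPM in Zambian libraries. Its early means were 4.11 CPM in Dutch and 1.79 CPM in Zambian libraries. Among enzymes, *Men* had a log2 fold change of -1.16 in Dutch and 0.40 in Zambian libraries, a difference of -1.55, and *Faa* one of -3.31 in Dutch and -0.79 in Zambian libraries, a difference of -2.52. *Faa* was low at both Zambian stages, at 1.64 CPM in prepupae and 2.88 CPM in early larvae, against 40.4 CPM in Dutch early larvae. *PPO1* and *PPO2*, for prophenoloxidases of crystal cells, a blood cell type, fell in both populations, with differences of 1.85 and 1.38. The last were -1.37 for *Obp44a*, 1.21 for *Drs* and 1.03 for *GstD1*. *Obp44a* was also low at both Zambian stages, at 2.36 CPM in prepupae and 3.12 CPM in early larvae. With 1 of the 12 libraries of both populations left out at a time, *Faa* did not pass without Zambian prepupal replicate 3 (-2.26), and *GstD1* without Dutch prepupal replicate 1 (1.01) or Zambian prepupal replicate 2 (1.01). The call was lost 5 times for *Men* (-1.73 to -1.39), 5 times for *PPO2* (1.08 to 1.61), 6 times for *PPO1* (1.51 to 2.10), 8 times for *Strica* (-0.94 to -0.72), 9 times for *Obp44a* (-1.57 to -0.90) and 11 times for *Drs* (1.01 to 1.48), where the ranges are those of the difference. Under other settings *Strica* did not pass with RLE (-0.83), upper-quartile (-0.73) or no scaling (-0.62), without a filter (-0.81) or with a replicate block (-0.82), *Obp44a* with upper-quartile (-1.25) or no scaling (-1.13) or a mean count of at least 50 (-1.31), *Drs* with RLE (1.19) or a replicate block (1.23) and *CG34206* without scaling (-1.03). The causes of these differences between populations were not tested.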

How the results depend on the processing

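The counts of called genes depended most on the scaling and on the size of change tested. Without scaling between libraries 5903 genes were higher and 1846 lower in prepupae, and in a test against a 2-fold change 545 were higher and 957 lower, which asks for a larger change by construction. DESeq2 gave 2370 and 3150, no filter 2233 and 3249 of 16295 genes, a mean count of at least 50 2528 and 3028 of 8894 genes, and the 6 Dutch libraries alone 2331 and 3244. With 1 Dutch library left out, 2141 to 3073 were higher and 2675 to 3188 lower, and without an early library the median of the log2 fold change over all genes was 0.19 to 0.21. Genes differing between populations numbered 103 to 209 with 1 of 12 libraries left out, with 250 in DESeq2, 162 with RLE, 239 with upper-quartile and 255 without scaling.

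On TMM-scaled library sizes the storage list took 30.5% in prepupae and 58.1% in early larvae, the ecdysone targets 20.2% and 9.27%, of which *Fbp1*, also in the storage list, held 17.97% and 6.22%, small heat shock proteins 0.511% and 0.0280%, and ribosomal proteins 3.89% and 6.57%, the stages in the same order as on column totals. The mitochondrial genome took 1.37% and 1.85%, the opposite order to that on column totals.

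Of 228 named genes 23 changed side or sign in at least 1 alternative other than the 2-fold test. *Eip74EF* turned to 0.18 (upper-quartile), 0.53 (no scaling, where it was called higher) and 0.064 (mean count of at least 50). In the same settings *usp* was called higher, at 0.44, 0.80 and 0.32. Without scaling *Hr78* was at 0.094, *Fbp2* at 0.043, *trol* at 0.078 and *PGRP-SB1* at 0.41, and with upper-quartile scaling *PGRP-SB1* was at 0.052. With 1 Dutch library left out, the values ran from -0.12 to 0.15 for *Eip74EF*, -0.31 to 0.35 for *PGRP-SB1*, -0.082 to 0.22 for *Mal-A1* and -0.011 to 0.24 for *CG2003*. The cause was not tested.

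The libraries of different stages share replicate numbers, but nothing in the labels ties the numbers together. Deviations of same-numbered Dutch libraries correlated at 0.089, 0.260 and 0.423, and those of differently numbered ones at -0.316 to 0.097. In Zambian libraries the values were -0.023, 0.128 and -0.198 for the same number and -0.249 to 0.237 for different numbers. Dutch libraries of the same number were thus mostly the more alike. The main fit did not pair them because the labels do not, and whether the numbers mark a shared batch was not tested. With a replicate block 2390 genes were higher, 3207 lower and 190 differed between populations, and *Strica* and *Drs* no longer did. Depth limits genes under the count minimum, and 1 population pool per library leaves the variation among strains unmeasured. The planned search for motifs in promoters was not run.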

Other observations

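Further lists were not described above. Of 27 genes of DNA replication and of the endocycle, by which larval fat body cells grow polyploid, 4 were called higher and 7 lower, with a median log2 fold change of -0.03 that was 0.17 with upper-quartile and 0.52 without scaling. In total 40.7% of this list was called, against 45.5% of all genes. The higher calls numbered 1 without prepupal replicate 1, 2 without prepupal replicate 2 and 2 without prepupal replicate 3, and the lower calls 3 without early replicate 1 and 4 without early replicate 2. *dap*, for an inhibitor of cyclin E kinase, had 12.5, 13.8 and 10.3 CPM in prepupal and 8.71, 8.40 and 7.38 CPM in early libraries (log2 fold change 0.58, SE 0.15, edgeR adjusted p = 0.00317). *fzr*, which switches cells into the endocycle, had 13.9, 17.5 and 12.1 CPM in prepupae and 24.3, 25.1 and 21.7 CPM in early larvae (log2 fold change -0.72, SE 0.13, edgeR adjusted p = 9.09e-05) and did not pass without scaling (-0.18). The stages were separate for both genes.

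Amino acid and purine breakdown had 5 of 11 genes called lower and 0 higher in edgeR, with 0 higher in DESeq2 or at an unadjusted p under 0.05. The median was -0.36 under TMM and 0.18 without scaling. *Faa*, for the last enzyme of tyrosine breakdown, had 4.75, 4.52 and 3.07 CPM in prepupal and 36.3, 31.2 and 53.6 CPM in early libraries (log2 fold change -3.31, SE 0.33, edgeR adjusted p = 5.38e-08), and *KFase*, for kynurenine formamidase of tryptophan breakdown, 7.68, 8.22 and 5.74 CPM in prepupae and 69.95, 69.1 and 67.4 CPM in early larvae (log2 fold change -3.27, SE 0.32, edgeR adjusted p = 3.31e-08). *Uro*, for urate oxidase, fell by 2.77, *ry*, for xanthine dehydrogenase, fell by 1.04, and *Hn*, for phenylalanine hydroxylase, fell by 0.98. No prepupal library reached the early range in these 5 genes. Of 6 Turandot genes, induced by stress, 2 were called higher and 1 lower, with a median of 1.06, where 19.4% and 26.1% of all genes were called. The lower call was lost with any 1 Dutch library left out and with upper-quartile or no scaling, and 1 gene was called higher without prepupal replicate 3, early replicate 1 or early replicate 3. *TotB* had 11.96, 8.41 and 17.02 CPM in prepupae and 1.07, 0.943 and 1.46 CPM in early larvae (log2 fold change 3.42, SE 0.52, edgeR adjusted p = 1.28e-05). Of 5 metallothionein genes 1 was called, *MtnF*, with 1.76, 1.95 and 1.72 CPM in prepupae and 0.384, 0.943 and 0.450 CPM in early larvae (log2 fold change 1.62, SE 0.46, edgeR adjusted p = 0.0062).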
